A study of Mus musculus with 6 samples.

Results

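Schwann cells wrap the axons of the peripheral part of the auditory nerve in myelin, and 8 genes of these cells were followed here in the ageing mouse cochlea. They were given as a list of names: 6 genes of myelin proteins (Pmp22, Mbp, Mag, Prx, Ncmap and Cnp) and 2 transcription factors of the Schwann cell lineage (Egr2 and Sox10). They are 8 of 25823 genes, and 44 of 56671 transcripts, in the table of expression values. In old mice the levels of Prx, Ncmap and Pmp22 were lower than in young mice, those of Mag, Mbp and Cnp did not pass the test, and neither did those of Egr2, which had the higher mean in old mice, and Sox10, whose means lay within the spread of either age.

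The data came from the cochlear basilar membrane of C57BL/6 mice, a strain known for early age-related hearing loss, dissected from mice of 1 month (young, 3 samples) or 12 months (old, 3 samples). Tissue of 3 mice was mixed in each sample, so a value is a mean over mixed animals, and a p-value measures the spread among 3 such mixtures per age. Total RNA was sequenced with directional libraries, and the labels set the groups apart by age alone. Values are FPKM (fragments scaled to transcript length and library size), a level per length, and a gene is the sum of its transcripts.

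Myelin is the lipid-rich membrane that a Schwann cell winds around an axon and then compacts, which allows fast conduction. Compact layers are held together by proteins such as Pmp22 and Mbp, while Mag, Cnp and Ncmap lie in the layers that keep cytoplasm, and Prx anchors the outer face of the cell to the basal lamina. Sox10 is needed throughout the Schwann cell lineage and, with Egr2 (also called Krox20), turns on myelin genes.

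The sequences that set forms of Prx and Mag apart are given first, since the transcripts described later differ in them. Prx codes for a long protein, L-periaxin, and a short one, S-periaxin, which arises when an intron is kept and translation runs into a stop codon there. For the intron-keeping transcript Prx-203 the kept intron covers 592 nt at chr7:27515448-27516039, and the sequence below (chr7:27515428-27515513, forward strand, GRCm38) holds the last 20 coding bases shared with the long form, then 21 codons read only from the intron, with the stop codon in capitals. Mag likewise has 2 cytoplasmic tails, and an exon of 45 nt that only the short form carries ends its reading frame. Its coding part (chr7:30900364-30900396, reverse strand, GRCm38) adds 10 codons, and the capitals mark the stop codon.
Prx-203: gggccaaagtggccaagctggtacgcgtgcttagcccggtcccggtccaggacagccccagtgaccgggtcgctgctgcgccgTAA
Mag-203: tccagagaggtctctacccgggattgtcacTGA

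Because several of these genes moved in the same direction, upstream sequence was searched too, and it is shown for some of them. Windows of 200 bases, from base 250 to base 51 before the RefSeq start site (GRCm38.p6), were searched on both strands for ACAAAG and ACAATG, cores bound by SOX proteins, and for GCGNGGGCG, bound by EGR proteins. Of the 8 genes, 6 matched the RefSeq table, and Mbp and Sox10 did not. ACAAAG or its reverse complement was found before Cnp and Mag, a motif that 13.6% of 32851 such windows hold. It was in no window of Prx, Ncmap and Pmp22, the genes called lower, nor in those of Egr2. That share is per window, and several of these genes have more than 1 window, so a count by gene cannot be set against it. For Mag the windows before the starts at chr7:30914863 and chr7:30914922 overlap and hold the same site. The window before chr7:30914321 holds none. ACAATG (8.94% of windows) and GCGNGGGCG (3.04%) were not found in the windows of the 6 genes, which says only that these letters are absent there. Below are the windows before the main start of Pmp22 (chr11:63131207-63131406, forward), the downstream start of Ncmap (chr4:135385723-135385922, reverse), the start of Cnp (chr11:100574689-100574888, forward) and the start of Mag (chr7:30914914-30915113, reverse), each written along the strand of its gene with the motif in capitals.
Pmp22: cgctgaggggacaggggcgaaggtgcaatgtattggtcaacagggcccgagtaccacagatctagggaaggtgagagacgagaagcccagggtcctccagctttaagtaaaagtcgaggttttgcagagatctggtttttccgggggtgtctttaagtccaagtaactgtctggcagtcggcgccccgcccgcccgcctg
Ncmap: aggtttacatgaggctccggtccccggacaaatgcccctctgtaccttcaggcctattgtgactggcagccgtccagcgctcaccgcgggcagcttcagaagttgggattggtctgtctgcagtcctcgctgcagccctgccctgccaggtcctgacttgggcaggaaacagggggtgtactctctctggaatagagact
Cnp: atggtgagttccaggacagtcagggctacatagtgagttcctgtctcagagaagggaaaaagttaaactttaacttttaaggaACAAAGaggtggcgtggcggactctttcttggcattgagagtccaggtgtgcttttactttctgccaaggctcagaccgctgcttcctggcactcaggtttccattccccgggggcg
Mag: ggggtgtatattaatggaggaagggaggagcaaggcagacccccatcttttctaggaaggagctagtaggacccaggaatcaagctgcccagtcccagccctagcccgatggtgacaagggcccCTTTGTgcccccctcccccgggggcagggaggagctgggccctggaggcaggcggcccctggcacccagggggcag
The GC content of these windows was 57.5% for Pmp22, 59.5% for Ncmap, 50.5% for Cnp and 65.5% for Mag, against a median of 51.5% over all windows.

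The tissue was checked against marker genes. Coch, which codes for cochlin, an abundant protein of the cochlea, was at 5304 to 9242 FPKM, and Epyc at 309 to 418 FPKM. Coch passed as lower in old mice (8295 ± 936 to 5447 ± 221 FPKM, limma adjusted p = 0.024). Slc26a5 was at 2.96 to 7.68 FPKM, Pou4f3 at 0.883 to 4.87 FPKM and Tecta at 0.089 to 0.22 FPKM. Of 6 cochlear genes tested, 2 were called lower (Coch and Slc26a5) and 1 higher (Otoa) in old mice. Over all genes 3.68% were called lower and 5.41% higher. Oligodendrocytes, which make the myelin of the brain, also express Mbp, Mag, Cnp and Sox10, but 7 of their markers (Mog, Mobp, Opalin, Ermn, Olig2, Hapln2 and Nkx2-2) summed to 0.446 to 1.57 FPKM in 5 samples and to 7.41 FPKM in young replicate 1. In that sample Mobp was at 4.54 FPKM and Mog at 1.54 FPKM, and elsewhere Mobp was at most 0.772 FPKM. Prx, a protein of peripheral and not central myelin, was at 30.1 to 57.3 FPKM, and the label of Schwann cell myelin was kept. In a bulk sample, fewer cells of a type and less RNA per cell cannot be told apart. Summed FPKM were 576487 to 601724 per sample, and depth, estimated from the steps between low values, was 12290000 to 15420000 fragments. Of 19649 genes tested, 1787 passed (724 lower and 1063 higher in old mice), and the median log2 change of all was 0.01.

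Pmp22 (ENSMUSG00000018217, chr11:63128982-63159547, forward strand) codes for a tetraspan protein of compact peripheral myelin whose dosage is altered in the commonest inherited neuropathy. Its levels were 269, 242 and 187 FPKM in young replicates 1, 2 and 3 and 151, 159 and 169 FPKM in old replicates 1, 2 and 3. All old samples lay below all young ones. Pmp22 fell to 68.6% of the young mean, from 233 ± 41.7 to 159.5 ± 8.89 FPKM (SD, n = 3), with a change in log2 FPKM of -0.53 (SE 0.13, limma adjusted p = 0.048). It is the gene called with the least margin, and at a pseudocount of 1 it did not pass (limma adjusted p = 0.052).

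Mbp (ENSMUSG00000041607, chr18:82475146-82585637, forward strand) codes for the basic protein that draws the cytoplasmic faces of the membrane together. It was at 312, 247 and 180.4 FPKM in young mice and at 178, 206 and 192 FPKM in old mice. The ages overlapped, with young replicate 3 as low as the old samples. The log2 change was -0.33 (SE 0.18, 95% interval -0.75 to 0.10, limma adjusted p = 0.29), and it was -0.14 without young replicate 1, the sample with oligodendrocyte transcripts, and -0.54 without young replicate 3.

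Periaxin, the product of Prx (ENSMUSG00000053198, chr7:27499324-27520214, forward strand), is a scaffold at the outer membrane of the myelinating Schwann cell, and its loss causes demyelination. Levels of Prx were 51.4, 57.3 and 38.0 FPKM in young mice and 30.5, 32.8 and 30.1 FPKM in old mice. The old samples were close to each other and all below the young ones. Prx fell from 48.9 ± 9.85 to 31.1 ± 1.45 FPKM (SD, n = 3), with a change in log2 FPKM of -0.63 (SE 0.15, limma adjusted p = 0.042).

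Ncmap (ENSMUSG00000043924, chr4:135369576-135398227, reverse strand) codes for a small membrane protein of noncompact myelin. It was at 51.8, 56.3 and 40.7 FPKM in young mice and at 29.3, 29.6 and 33.8 FPKM in old mice, with no overlap. Ncmap fell from 49.6 ± 8.0 to 30.9 ± 2.48 FPKM (SD, n = 3), a change in log2 FPKM of -0.67 (SE 0.13, limma adjusted p = 0.027), which was the largest in size among the 8 genes and had the smallest adjusted p.

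Cnp (ENSMUSG00000006782, chr11:100574904-100581728, forward strand) codes for a cyclic nucleotide phosphodiesterase that keeps cytoplasmic channels open in myelin. Its levels were 122, 119.8 and 82.8 FPKM in young mice and 69.4, 71.9 and 72.9 FPKM in old mice. The groups did not overlap, but the test across all genes was just missed, with a log2 change of -0.58 (SE 0.14, 95% interval -0.92 to -0.24, limma adjusted p = 0.051). Cnp passed with a mean of at least 1 FPKM as the filter, with quantile normalization and with sample weights (limma adjusted p = 0.042, 0.039 and 0.030). Only 1 of its 4 annotated transcripts was in the table, so the sum for Cnp stands for Cnp-201 alone.

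Mag (ENSMUSG00000036634, chr7:30899176-30914865, reverse strand) codes for an adhesion protein of the innermost wrap, facing the axon. Values were 17.0, 17.0 and 10.8 FPKM in young mice and 9.14, 11.2 and 9.28 FPKM in old mice. Young replicate 3 lay between the old samples, and the log2 change of -0.56 (SE 0.19, 95% interval -1.02 to -0.11) did not pass with a limma adjusted p of 0.11.

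Egr2 (ENSMUSG00000037868, chr10:67535475-67542188, forward strand), the zinc finger factor without which Schwann cells do not myelinate, had a mean in the other direction. It was at 8.73, 7.17 and 4.34 FPKM in young mice and at 11.3, 11.8 and 7.26 FPKM in old mice. The ages overlapped, and young replicate 3 was the lowest of all 6 samples. The mean in old mice was 1.5-fold that in young mice, with a log2 change of 0.60 (SE 0.29, 95% interval -0.07 to 1.27, limma adjusted p = 0.22), and of 0.32 without young replicate 3. Egr2 is also an immediate early gene in other cells. Of 8 immediate early genes tested, 3 rose, where 5.41% of all genes were called higher. The log2 changes were 2.27 for Fos, 1.30 for Junb and 0.82 for Dusp1 (limma adjusted p = 0.042, 0.040 and 0.038). The part of these genes in the level of Egr2 was not tested.

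Sox10 (ENSMUSG00000033006, chr15:79154913-79164490, reverse strand) marks Schwann cells, and in the inner ear also melanocytes of the vascular stria. It was at 29.4, 29.9 and 37.2 FPKM in young mice and at 27.1, 29.3 and 38.6 FPKM in old mice. The ranges were nearly the same, and the log2 change was -0.03 (SE 0.15, 95% interval -0.38 to 0.32, limma adjusted p = 0.92). Unlike the myelin protein genes, Sox10 was highest among young samples in replicate 3. Melanocyte genes (8 tested) summed to 828 to 1295 FPKM in young mice, with the most in young replicate 3, and to 1146 to 1252 FPKM in old mice, and their part in the level of Sox10 was not tested.

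**Figure D1:**
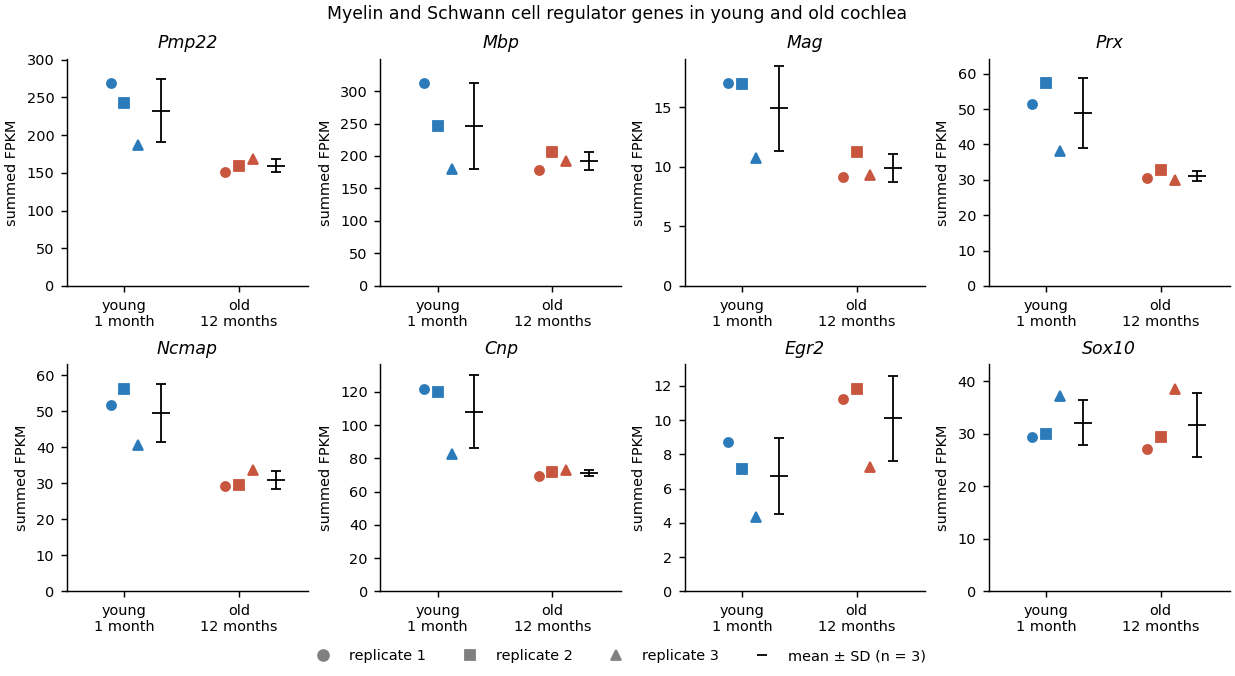
Summed FPKM (vertical axes) of each of the 8 genes in the 3 young and 3 old samples, with the mean and SD beside the points. The old samples lie below all young samples for Pmp22, Prx, Ncmap and Cnp, and young replicate 3 is the lowest young sample for every gene but Sox10.

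Across the 8 genes 3 passed the test, all lower in old mice, against a background of 9.09% of all genes tested (3.68% lower and 5.41% higher). At an unadjusted p under 0.05 there were 5 by limma, where the share over all genes was 27.5%. For 4 of the 8 the old samples all lay below the young ones, as they did for 16.0% of all genes, and for 0 of the 8 all above, against 17.5%. The median log2 change was -0.55 over the 8 genes and -0.57 over the 6 myelin protein genes. By level the order in young mice was Mbp, Pmp22, Cnp, Ncmap, Prx, Sox10, Mag and Egr2, in which Mbp and Pmp22, and Ncmap and Prx, did not differ beyond their spread. In old mice Egr2 (10.1 ± 2.49 FPKM) and Mag (9.88 ± 1.17 FPKM) were level, as were Sox10, Prx and Ncmap, while Mbp at 192 ± 13.9 FPKM lay above Pmp22.

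For the 6 myelin protein genes the SD was larger among young than among old samples. Young replicate 3 was the lowest of the young samples for all 6 myelin protein genes, and young replicate 1 was the highest for 4 of them. Summed over the 6 genes, the level was 822, 739 and 539.7 FPKM in young mice and 467, 509.8 and 507 FPKM in old mice, so that young replicate 3 lay nearest to the old samples. With young replicate 3 left out, 5 of the 8 genes and 1393 of all 19649 passed the test, Mag with a log2 change of -0.78 and Cnp with -0.76 (limma adjusted p = 0.029 and 0.012) in addition to the 3 named above. With any one of the other 5 samples left out, 0 of the 8 passed at 2 samples against 3, where calls over all genes were also few, 369 without young replicate 1, 34 without young replicate 2, and 5, 18 and 1 without old replicates 1, 2 and 3. Still, the log2 changes of the 6 myelin protein genes stayed below 0 in every case. Limma adjusted p was then 0.12 to 0.17 for Pmp22 (largest without young replicate 2), 0.13 to 0.14 for Prx (largest without old replicate 1) and 0.077 to 0.12 for Ncmap (largest without old replicate 2).

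**Figure D2:**
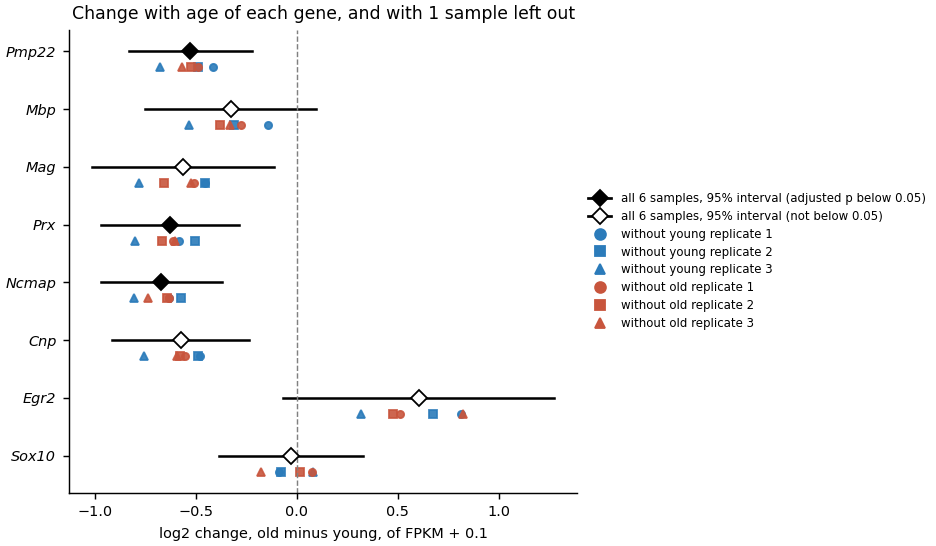
Log2 change (old minus young, of FPKM + 0.1; horizontal axis) of each gene with its 95% interval over 6 samples, filled where the adjusted p is below 0.05, and small symbols for the change with 1 sample left out. The 6 myelin protein genes stay below 0 throughout, with the largest changes when young replicate 3 is left out, and Sox10 falls on either side of 0.

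Each gene was then taken apart into its transcripts. Of the 44 transcripts, 34 had a mean of at least 0.1 FPKM and were tested, and 10 were not. By limma 0 of the 34 passed, against 0.748% of 38764 transcripts tested (0.199% lower and 0.549% higher). At an unadjusted p under 0.05 there were 11, 10 lower and 1 higher in old mice, where the share over all transcripts was 17.0%. In 7 of the 34 the old samples all lay below the young ones (12.0% of all transcripts), and 24 of the 34 had a log2 change below 0. The counts rest on reads that several transcripts share and that the quantification divides among them. In 10 of the 44, values swung from under 0.1 to at least 1 FPKM between samples of 1 age. Among transcripts with a mean of at least 1 FPKM this was so for 6 of 25 of these genes and for 7.92% of all 24643.

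Pmp22 was made up mostly of Pmp22-201, at 218, 206 and 157 FPKM in young mice and 132, 121 and 126 FPKM in old mice. The old samples lay below the young ones, with a change in log2 FPKM of -0.60 (SE 0.12, limma adjusted p = 0.079). Pmp22-204, which begins 5′ of it, was at 43.7, 27.8 and 25.0 FPKM in young mice and at 15.8, 28.3 and 26.2 FPKM in old mice, and the ages overlapped. All 4 Pmp22 transcripts in the table code for 160 amino acids. Pmp22-202 ranged from near 0 to 14.6 FPKM within the old samples, and Pmp22-203 stayed at 1.01 to 3.75 FPKM in all 6.

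Mbp was divided among forms of the classic basic protein and the Golli forms, which begin far upstream and are also known from neurons and immune cells. Mbp-211, coding for 128 amino acids, was at 159, 131 and 92.6 FPKM in young mice and 95.1, 103 and 106 FPKM in old mice. Mbp-212, which codes for 169 amino acids because it keeps an exon of 123 nt (41 codons) that Mbp-211 leaves out, was at 70.9, 61.7 and 45.4 FPKM in young mice and 44.7, 51.1 and 41.9 FPKM in old mice. Both had young replicate 3 inside or next to the old range. Their shares of the gene were 51.8% ± 0.97 in young and 52.9% ± 2.68 in old mice for Mbp-211 and 24.3% ± 1.35 and 23.9% ± 1.82 for Mbp-212 (SD, n = 3, two-sided exact permutation p = 0.6 for either, in a design that cannot go below 0.1). The Golli transcript Mbp-205 was at 15.2, 17.1 and 16.6 FPKM in young mice and 17.2, 15.9 and 16.8 FPKM in old mice. Its log2 change was 0.03 (SE 0.09, limma adjusted p = 0.89), and its SE was the smallest of the 34 transcripts.

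Lesser Mbp transcripts varied from sample to sample. Mbp-209 was at 23.7, 13.1 and 12.8 FPKM in young mice and 2.81, 18.3 and 13.2 FPKM in old mice. Mbp-204 ran from 0.048 to 21 FPKM within the young samples, Mbp-206 from 3.63 to 17.3 FPKM and Mbp-203 from near 0 to 5.41 FPKM, while Mbp-215 was above 4 FPKM in young replicate 3 and in old replicates 2 and 3 and at most 0.286 FPKM in the others. None separated the ages.

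The long periaxin form was Prx-202 (1391 amino acids), at 35.1, 36.6 and 23.6 FPKM in young mice and 23.3, 24.5 and 20.7 FPKM in old mice. The S-periaxin transcript Prx-203, which keeps the intron printed above and codes for 148 amino acids, was at 8.93, 9.56 and 6.90 FPKM in young mice and 4.42, 5.79 and 4.77 FPKM in old mice. Old samples of Prx-203 all lay below the young ones, with a change in log2 FPKM of -0.74 (SE 0.18, limma adjusted p = 0.10). Unspliced RNA that still holds this intron would be counted in Prx-203 as well. Prx-201 also codes for 1391 amino acids, from a start further 3′, and was at 7.33, 9.94 and 6.95 FPKM in young mice and 2.77, 2.53 and 4.57 FPKM in old mice. Its groups did not overlap, and its log2 change of -1.30 (SE 0.26, limma adjusted p = 0.077) had the smallest adjusted p of the 34 transcripts. The share of Prx-202 in the gene was 64.7% ± 3.26 in young and 73.3% ± 3.91 in old mice (SD, n = 3). Of 22 shares tested, it was the only one at the smallest p that 3 against 3 samples allow (two-sided exact permutation p = 0.1, adjusted p = 0.69).

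Ncmap-203 was the main form of Ncmap, at 31.6, 40.4 and 23.3 FPKM in young mice and 21.5, 22.2 and 23.9 FPKM in old mice. Ncmap-202 was at 15.2, 14.3 and 8.12 FPKM in young mice and 7.84, 5.58 and 6.10 FPKM in old mice, with no overlap and a change in log2 FPKM of -0.90 (SE 0.26, limma adjusted p = 0.16). Both code for 100 amino acids, as do Ncmap-201 and Ncmap-204. Ncmap-201 was at 3.52 and 7.82 FPKM in young replicates 1 and 3 and at most 0.011 FPKM in the other samples. Ncmap-204 was near 0 in old replicate 1 and at 3.79 FPKM in old replicate 3.

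In Mag the coding transcripts with the short tail, Mag-201 and Mag-203 (582 amino acids each), differ mainly in their 5′ exons and took turns. Mag-201 was at 9.37, 3.05 and 4.69 FPKM in young mice and 0.352, 5.63 and 0.325 FPKM in old mice, and Mag-203 at 0.007, 4.78 and 0.008 FPKM in young mice and 4.58, 0.006 and 4.27 FPKM in old mice. In each sample in which one of them was near 0, the other carried the level. Mag-205, an annotated fragment of 635 nt over the 5′ exons, was at 7.01, 8.83 and 6.08 FPKM in young mice and 4.2, 5.60 and 4.49 FPKM in old mice. Its ages did not overlap (log2 change -0.60, SE 0.19, limma adjusted p = 0.18). Mag-207, the form with the long tail that leaves out the exon printed above (627 amino acids), was at 0.628 and 0.317 FPKM in young replicates 1 and 2 and near 0 in the other 4 samples. It was far below the short-tail forms.

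Egr2-201, coding for 470 amino acids, carried most of Egr2, at 8.17, 7.03 and 4.22 FPKM in young mice and 9.48, 10.2 and 6.84 FPKM in old mice. Egr2-202 was at 0.561, 0.143 and 0.122 FPKM in young mice and 1.33, 1.62 and 0.419 FPKM in old mice (limma adjusted p = 0.29). It was the 1 transcript of the 11 above with a higher level in old mice. Estimated fragments behind Egr2-201 were 139 to 426 per sample. For comparison, Pmp22-201 rested on 2489 to 4363 fragments and Prx-201 on 146 to 573, which covers counting error only.

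**Figure D3:**
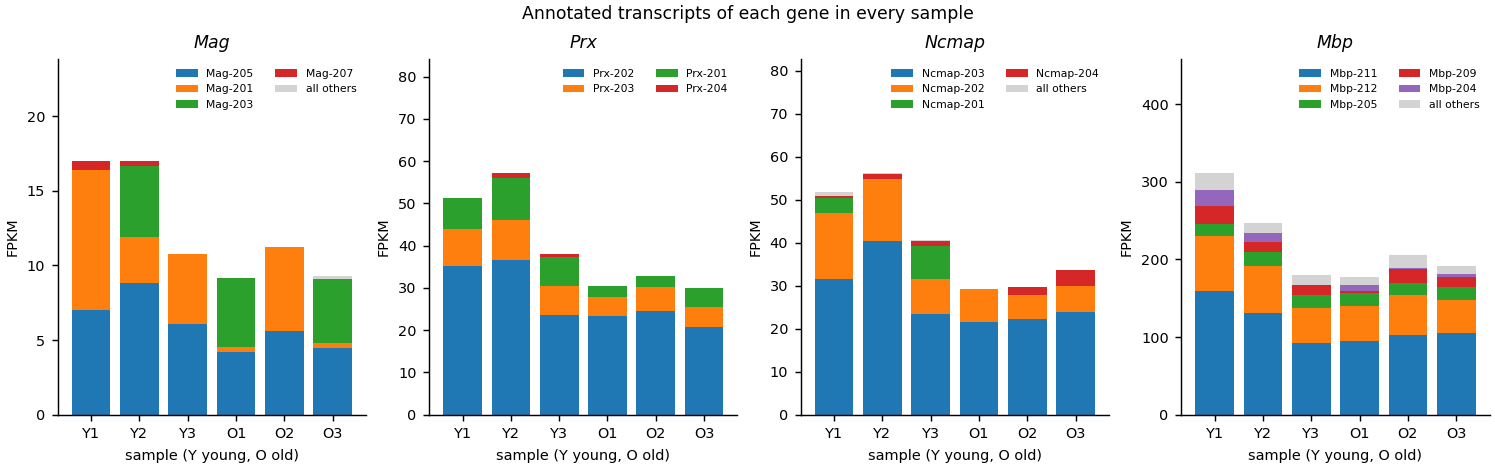
FPKM (vertical axes) of the annotated transcripts of Mag, Prx, Ncmap and Mbp, stacked to the gene's sum in each young (Y) and old (O) sample. Mag-201 and Mag-203 replace each other from sample to sample, Prx-201 is at 6.95 to 9.94 FPKM in young and 2.53 to 4.57 FPKM in old samples, and Mbp-205 has nearly the same height throughout.

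Summing transcripts by where they start brings together forms that differ in later exons. Starts up to 1000 nt from the next were put in 1 group, a grouping chosen after the transcript values were seen. Of 24755 such groups tested, 1168 passed (4.72%, with 1.7% lower and 3.01% higher), and of the 14 groups of these genes 13 were tested and 3 passed, all lower in old mice. Without adjustment 6 of the 13 had a limma p under 0.05, where the share over all groups was 23.1%. The old samples all lay below the young ones in 5 of the 13 and in 14.4% of all groups, and all above them in 0 of the 13 and in 15.6% of all groups.

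The start group of Prx at chr7:27507801-27507806 (Prx-201 and Prx-204) was at 7.33, 11.1 and 7.56 FPKM in young mice and 2.77, 2.53 and 4.57 FPKM in old mice. It fell by 1.39 on the log2 scale (SE 0.27, limma adjusted p = 0.041). The upstream group at chr7:27499324, which holds the long and the intron-keeping form, was at 44.0, 46.2 and 30.5 FPKM in young mice and 27.8, 30.3 and 25.5 FPKM in old mice, also without overlap, and its log2 change of -0.51 (SE 0.16) had a limma adjusted p of 0.13. The difference between these changes was not tested. The downstream group made up 17.8% of Prx in young and 10.7% in old mice.

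For Ncmap the downstream group (starts at chr4:135385645-135385672) was at 50.4, 54.8 and 39.3 FPKM in young mice and 29.3, 27.8 and 30.0 FPKM in old mice. It fell by 0.71 on the log2 scale (SE 0.13, limma adjusted p = 0.035), and the SD of the old samples was 1.11 FPKM. The upstream group of Ncmap was at 1.48, 1.49 and 1.45 FPKM in young mice, and it was near 0, at 1.81 and at 3.79 FPKM in old replicates 1, 2 and 3.

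Pmp22 has an upstream promoter known for use in myelinating Schwann cells and a downstream one known for use in many tissues. Which annotated start belongs to which promoter was not tested. The group that passed was Pmp22-201, at the start at chr11:63131512 (log2 change -0.60, SE 0.12, limma adjusted p = 0.046). It made up 83.5% of Pmp22 in young and 79.6% in old mice. Pmp22-204, at the annotated start furthest upstream, made up 13.7% and 14.6%. It had a log2 change of -0.46 (SE 0.28, 95% interval -1.13 to 0.21, limma adjusted p = 0.38), so its interval held both no change and the change of Pmp22-201. A further group of Pmp22 starts was at 7.32, 8.10 and 4.52 FPKM in young mice and 2.86, 9.0 and 16.9 FPKM in old mice. For Mbp the Golli start gave 15.5, 17.1 and 17.5 FPKM in young mice and 18.5, 16.2 and 17.4 FPKM in old mice (log2 change 0.06, SE 0.09). The classic start gave 296, 229.8 and 163 FPKM in young mice and 159, 189 and 174 FPKM in old mice (log2 change -0.36, SE 0.20, limma adjusted p = 0.34). With young replicate 3 left out 5 of these groups and 970 of all groups passed. With any one of the other 5 samples left out 0 of these groups did by limma, and 72 or fewer of all groups, the most without young replicate 1.

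**Figure D4:**
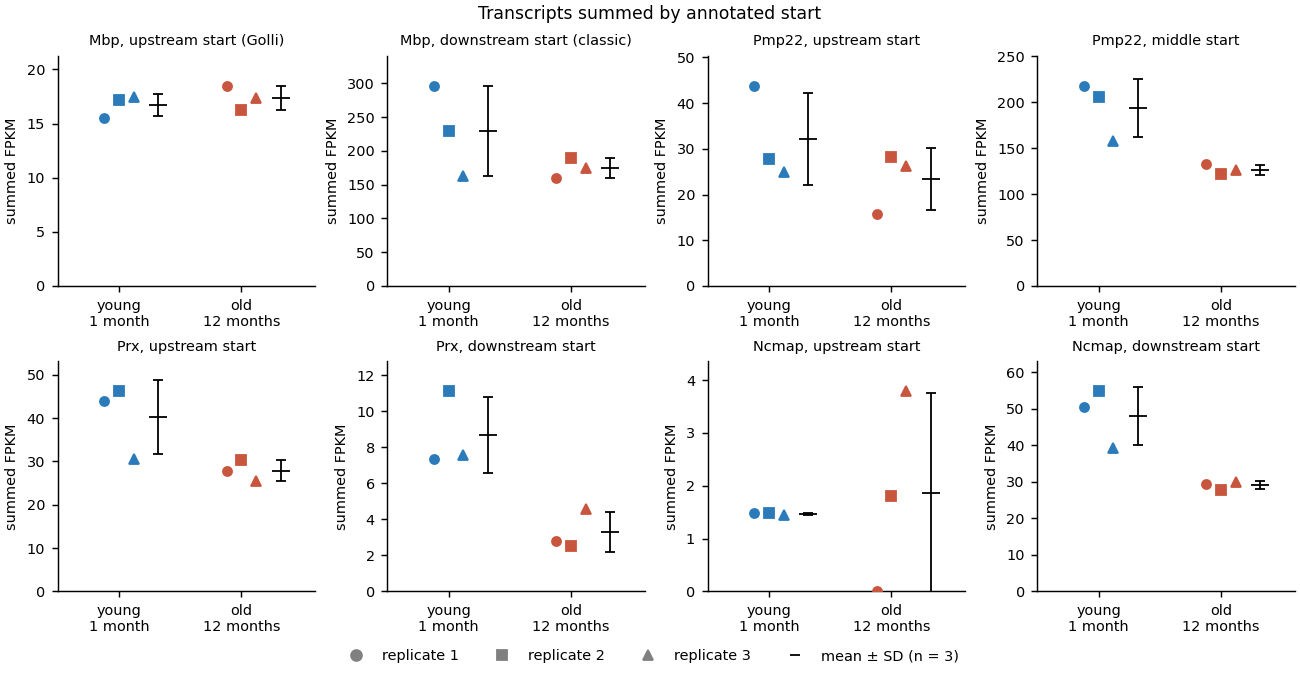
Summed FPKM (vertical axes) of transcripts grouped by annotated start for Mbp, Pmp22, Prx and Ncmap in the 3 young and 3 old samples, with the mean and SD. The downstream starts of Prx and Ncmap and the middle start of Pmp22 are lower in all old samples, whereas the Golli start of Mbp stays between 15.5 and 18.5 FPKM.

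Other genes of the sheath were read beside these, in lists chosen with earlier results of these data known. Counts in these lists are thus no independent test. Calls in these and the following lists rest on all 6 samples, since over all genes 0 were called lower, and 5 or 1 higher, without old replicate 1 or without old replicate 3. Of 14 other myelin sheath proteins, 4 fell and 1 rose, where 3.68% of all genes were called lower and 5.41% higher. The median log2 change of these 14 was -0.23. Cldn19, which codes for the claudin of Schwann cell tight junctions, fell from 21.5 ± 2.93 to 12.6 ± 1.17 FPKM (limma adjusted p = 0.020). Drp2, whose product binds periaxin, fell from 41.2 ± 6.30 to 26.1 ± 0.87 FPKM (adjusted p = 0.023), and Pllp, plasmolipin of compact myelin, from 15.2 ± 0.98 to 11.7 ± 0.23 FPKM (adjusted p = 0.043). Cd9, a tetraspanin present on many cell types, rose from 313 ± 29.0 to 396 ± 3.41 FPKM (adjusted p = 0.039).

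Among 6 myelin lipid enzymes, 2 fell and 2 rose (3.68% and 5.41% of all genes), with a median log2 change of -0.23. Fa2h, which makes the hydroxylated fatty acids of myelin galactolipids, was at 7.03, 8.38 and 7.23 FPKM in young mice and 2.13, 3.08 and 2.72 FPKM in old mice. Its log2 change of -1.49 (SE 0.17, limma adjusted p = 0.012) was larger in size than that of any of the 8 genes. Ugt8a, which adds galactose to ceramide in the same pathway, was at 31.9, 33.2 and 20.5 FPKM in young mice and 13.7, 13.9 and 11.3 FPKM in old mice (log2 change -1.11, SE 0.19, limma adjusted p = 0.023). Elovl1 and Cers2, which make very long acyl chains and ceramides in most cells, rose by 0.43 and 0.42 on the log2 scale (limma adjusted p = 0.032 and 0.027). Gal3st1, which adds the sulfate of sulfatide, differed by -0.46 in log2 FPKM and did not pass (SE 0.22, limma adjusted p = 0.22).

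Regulators and other states of the Schwann cell gave no call. Over all genes 9.09% were called, a share at which lists this short can hold 0 calls. Of 14 other regulators of myelinating Schwann cells, limma called 0, with a median log2 change of -0.14, and 8 of the 14 had a change below 0. The largest changes were -1.13 for Pou3f1 and -0.98 for Pou3f2 (limma adjusted p = 0.053 and 0.075). Their old samples all lay below the young ones, at low means over all samples of 1.9 and 2.2 FPKM. The most abundant were Ndrg1, at 109 ± 16.2 FPKM in young and 81.3 ± 3.32 FPKM in old mice (limma adjusted p = 0.062), and Zeb2 (38.5 ± 6.01 and 33.1 ± 3.27 FPKM, adjusted p = 0.34). Of 13 genes of non-myelinating, immature and repair Schwann cells 0 were called, with a median of -0.16. S100b was at 3425 ± 233 FPKM in young and 2946 ± 197 FPKM in old mice (limma adjusted p = 0.17), and Jun, which rises in repair cells and is also an immediate early gene, at 12.8 ± 2.51 and 24.9 ± 7.26 FPKM (adjusted p = 0.059). At an unadjusted p under 0.05 there were 5 of the 14 and 5 of the 13, where the share over all genes was 27.5%. Of 7 genes of the node and paranode, structures that the axon and the glia form together, 3 fell, against 3.68% of all genes. The log2 changes were -1.09 for Sptbn4, -0.81 for Cntnap1 and -0.55 for Cntn1 (limma adjusted p = 0.041, 0.031 and 0.047). Gldn (-0.35), Nrcam (-0.11), Ank3 (-0.06) and Nfasc (0.01) did not pass (limma adjusted p = 0.37, 0.54, 0.79 and 0.96). Which cells these transcripts came from was not tested.

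Genes of other cell types moved in the same samples, where 3.68% of all genes were called lower and 5.41% higher. Of 10 neuron genes 7 fell, with a median log2 change of -1.03, among them Nefm (-1.30), Thy1 (-1.20) and Snap25 (-1.19), with limma adjusted p of 0.022, 0.017 and 0.029. Prph went the other way without passing (0.70, limma adjusted p = 0.069). Summed neuron genes were at 104%, 129% and 66.1% of the young mean in young mice and at 43.4%, 47.6% and 44.7% in old mice, while the 6 myelin protein genes were at 117%, 106% and 77.1% and at 66.7%, 72.8% and 72.3%. Young replicate 3 was thus lowest among young samples for both sums. Of 6 fibroblast genes 3 fell, Col3a1 by 2.25, Col1a2 by 1.93 and Dcn by 0.51 on the log2 scale, and of 6 osteoblast genes 2 fell, Ibsp by 2.63 and Sp7 by 1.21. From these lists Lum and Alpl went the other way without passing, by 0.33 and 0.59 (limma adjusted p = 0.069 and 0.15). All 10 macrophage genes rose, with a median of 1.81, led by Lyz2 (2.64), Aif1 (2.1) and C1qc (1.95), and their sum was 444% to 497% of the young mean in old mice. Of 8 melanocyte genes 1 fell (Kcnj13, -0.67), and it was the only one with a log2 change below 0. Their median was 0.21, and Mlana differed by 0.62 without passing (limma adjusted p = 0.10). The part of the makeup of the tissue in the levels of the 8 genes was not tested.

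**Figure D5:**
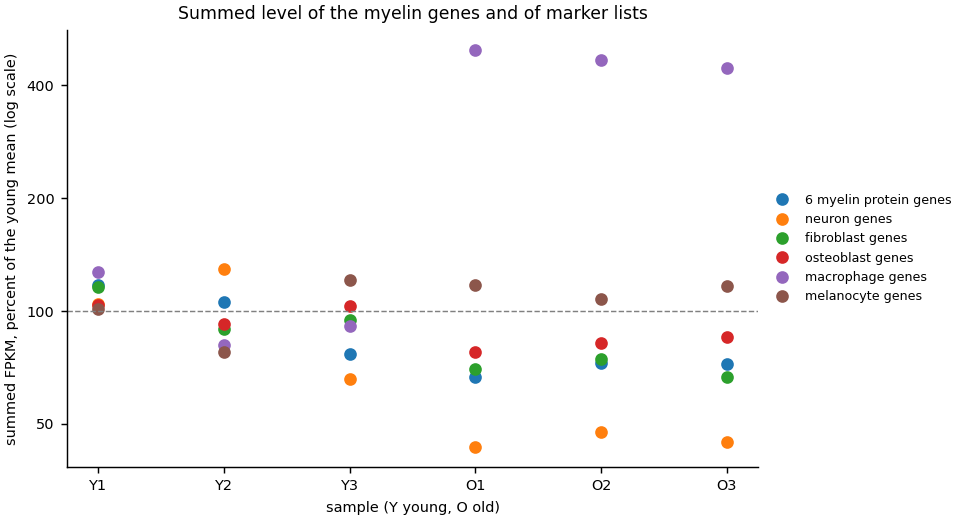
Summed FPKM of the 6 myelin protein genes and of 5 marker lists in each young (Y) and old (O) sample as a percent of the young mean (vertical axis, log scale). The myelin sum is 66.7% to 72.8% in old samples, the neuron sum 43.4% to 47.6% and the macrophage sum 444% to 497%, and young replicate 3 has the lowest neuron and myelin sums of the young samples.

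The genes with the pattern most like the mean of the 8 over the 6 samples, by the root mean square difference of log2 values centred on each gene's mean, were Magi2 (0.043), Plekha4 (0.044), Ndrg1 (0.048), Rapgef5 (0.051) and Ncdn (0.053). The median over the 15066 genes compared was 0.31. The mean of the 8 takes in Egr2 and Sox10, and it moved less than the mean of the 6 myelin protein genes. In centred log2 values it was 0.36 against 0.47 in young replicate 1 and -0.23 against -0.35 in old replicate 1. None of the 5 passed the test of age, with adjusted p of 0.062 to 0.30 by limma. Ndrg1, whose loss causes a demyelinating neuropathy, was at 120.0, 117 and 90.4 FPKM in young mice and at 79.6, 85.2 and 79.3 FPKM in old mice.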

How the data were processed

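The cochlear basilar membrane of 3 young and 3 old samples was measured by RNA sequencing, and samples were grouped by the age in their labels. The authors made directional libraries, aligned reads to GRCm38 and computed the deposited FPKM per transcript and sample, with TopHat2 (2.0.9), Cufflinks (2.1.1) and Cuffdiff (2.1.1) named in the submitters' processing notes. The annotation release and the scaling between libraries are not given in the sources used here. Reads were not used here, so the Cuffdiff test of the study was replaced by a test on FPKM.

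Transcripts were assigned to genes with GENCODE M21, and 55275 of 55679 Ensembl transcripts matched. FPKM of the transcripts of a gene were summed. Genes and transcripts with a mean of at least 0.1 FPKM were tested two-sided with limma 3.58.1 in R 4.3.3 (lmFit, eBayes with trend) on log2(FPKM + 0.1), with age as the only term and Benjamini-Hochberg adjustment over all features tested (threshold 0.05). A fold change on this scale understates the change of low values. Shares of transcripts were compared by exact permutation tests. The code was tested on simulated data. Depth was taken from the spacing of low FPKM values, of which 93.3% to 94.8% lay within 0.1 of a whole step, and estimated fragments and intervals cover counting error or sample spread only. Tables were made with pandas 2.3.3 and numpy 2.4.6 in Python 3.11.15, and plots with matplotlib 3.10.9.

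The members and lists were chosen with earlier results of these data known. Named are the 8 genes, their transcripts with a mean of at least 1 FPKM (others were named after their values were seen), from each list up to 3 genes past the threshold with the largest change or, with none past it, the 2 most abundant, and the 5 genes most like the mean profile. Pllp, Cd9, Cers2, Gal3st1, Pou3f1, Pou3f2, Gldn, Nrcam, Ank3, Nfasc, Coch, Epyc, Slc26a5, Pou4f3, Tecta, Otoa, Prph, Lum, Alpl and Mlana were added after their values were seen. So was the grouping by start site. For 2 listed genes no value is given here. The pseudocount, filter, scaling, variance trend, sample weights, replicate block, gene summary, p adjustment and each sample were varied.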

Additional observations from a re-analysis of the deposited data

How the results depend on the processing

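The log2 changes of the 6 myelin protein genes kept their sign under all 17 alternatives, but the number called did not. Of the 8 genes, 3 were called, and 0 were called without a filter, without a variance trend or with the replicate block, 1 with the most abundant transcript per gene, 2 at a pseudocount of 1 (Pmp22 lost), 4 with a mean of at least 1 FPKM, quantile normalization or sample weights (Cnp gained), 5 with an unadjusted p, and 0 to 5 with 1 sample left out. The counts over all genes (1787) were 908, 392 and 675 in the first 3 of these settings, 5403 with an unadjusted p, and 1 to 1393 with 1 sample left out. Of the transcripts of the 8 genes 0 were called, and 11 with an unadjusted p. Over all transcripts (290) the counts were 496 with a mean of at least 1 FPKM, 157 without the trend, 2 with the block, 6602 with an unadjusted p, and 0 to 3 with 1 sample left out. Of the start-site groups 3 were called, and 0 without a filter, without the trend or with the block, 6 with an unadjusted p, and 0 to 5 with 1 sample left out. Over all start-site groups (1168) these counts were 313, 171, 2, 5730 and 1 to 970, and 1766 with sample weights. Fewer samples remain in the settings that leave one out, and the cause of the other differences was not tested.

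Over 15074 genes, the deviations of samples with the same replicate number correlated at 0.03, -0.10 and 0.04. Such values over all genes cannot show whether replicate numbers pair the samples. With the replicate block the limma adjusted p was 0.090 for Pmp22, 0.052 for Prx and 0.064 for Ncmap. It was 0.067 for Egr2, 0.075 for Cnp, 0.097 for Mag, 0.29 for Mbp and 0.84 for Sox10. The SE of Egr2 was then 0.13, against 0.29 without the block. That of Sox10 was 0.080 against 0.15, and that of Pmp22 was 0.14 against 0.13.

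The sign turned for Mbp-204 at a pseudocount of 0.01 (log2 change 0.36) and for Ncmap-204 at a pseudocount of 1 (0.34) and with sample weights (0.46). With 1 sample left out, log2 changes that turned sign ran from -0.18 to 0.078 for Sox10, -2.46 to 0.63 for Mbp-203, -2.30 to 1.27 for Mbp-204, -0.018 to 0.066 for Mbp-205, -2.25 to 1.35 for Pmp22-202, -0.57 to 0.30 for Pmp22-203, -1.09 to 1.55 for Ncmap-204, -0.34 to 0.93 for the third Pmp22 start group and -1.84 to 0.80 for the upstream Ncmap start group. None of these was called. The precision is limited by 3 samples per age and by the spread among the young ones.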
